A study of Mus musculus with 8 samples.

Results

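The genes described are those that encode the proteins of the cytosolic ribosome, read in mouse cortex at postnatal day 1 with and without the chromatin remodeling subunits BAF155 and BAF170. Members were the protein-coding genes with a symbol of *Rpl* or *Rps* and a digit, *Rplp0*, *Rplp1*, *Rplp2* or *Rpsa*, without the *Rps6k* kinases, and with a mean of at least 100 raw counts over the libraries. The rule found 73 genes of 48709 listed, 28 named for the small 40S subunit and 45 for the large 60S subunit, and all 73 were among the 16287 genes that passed the filter on low counts and were tested. The rule used the level of a gene but no difference between groups.

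The ribosome consists of a small subunit, which reads the mRNA, and a large subunit, which joins amino acids and passes the new chain through an exit tunnel. Most of its proteins are present once in each particle, and their mRNAs are among the most abundant of a growing cell. Many of these mRNAs begin with a tract of pyrimidines at the cap, the 5′ terminal oligopyrimidine or TOP motif, through which their translation follows mTORC1 activity. The mouse genome also holds many processed copies of these genes, pseudogenes that arose by reverse transcription of their mRNAs.

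The dcKO_Nex-Cre cortex (4 libraries) came from mice in which floxed BAF155 (*Smarcc1*) and floxed BAF170 (*Smarcc2*) are removed by Nex-Cre. That driver is active in postmitotic projection neurons of the cortex, so that glia, interneurons and vessels keep both genes. The control cortex (4 libraries) was from heterozygous animals with 1 floxed and 1 wild-type allele of each gene (BAF155fl/+, BAF170fl/+) and no Cre, so that the presence of Cre cannot be told apart from the deletion. The labels call the groups Control and Mutant, and the driver is taken from the methods of the study. Nothing states that the replicates of a group were separate animals, and p-values measure the spread between these libraries. RNA was from whole tissue, in which fewer cells of a type and less RNA per cell cannot be told apart.

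Libraries held between 17958641 and 35191912 counts on genes. The targeted genes were both lower in the mutant: *Smarcc2* was at 462 ± 25.8 CPM (counts scaled to the same library total, SD, n = 4) in control and 263 ± 26.0 in dcKO_Nex-Cre, and *Smarcc1* at 148 ± 11.6 and 102 ± 13.7, with no overlap of the groups for either gene (adjusted p = 0.0027 and 0.035, the latter lost in 6 of the 8 fits that left out 1 library). Among 10 lists of cell type markers, with no marker at 0 in all libraries, *Neurod6*, whose locus drives Nex-Cre, fell (log2 fold change -0.74, adjusted p = 0.019), while *Cspg4* of oligodendrocyte precursors rose (0.56, adjusted p = 0.035) and *C1qb* of microglia rose (0.46, adjusted p = 0.042; edgeR quasi-likelihood test). Of the lists these genes belong to, 6 of 10 glutamatergic neuron markers, 0 of 5 oligodendrocyte precursor markers and 3 of 8 microglia markers were below 0. With each library left out in turn these calls were lost in 5, 7 and 7 of 8 fits, while all 3 genes passed the test without control replicate 2 and dcKO_Nex-Cre replicate 4. Control replicate 2 and dcKO_Nex-Cre replicate 4 stood apart from the other 6 libraries. They had the fewest counts of their groups and the largest share of counts on the mitochondrial genome (6.87% and 6.15%, against 2.33% to 4.24% elsewhere). Each was also the lowest of its group for the summed level of 6 choroid plexus markers. That level varied widely, from 22.3 to 1336 CPM in control and from 4.10 to 557 CPM in dcKO_Nex-Cre. Control replicate 2 was also the lowest control library for markers of glutamatergic neurons, radial glia, cycling progenitors, oligodendrocyte precursors and endothelium. It was the highest for interneurons and meninges. dcKO_Nex-Cre replicate 4 was the lowest mutant library for oligodendrocyte precursors, microglia and endothelium, and the highest for interneurons and red blood cells. The part of these 2 libraries in the results was not tested, and each main result is therefore given with and without them.

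The ribosomal protein genes together held between 1.01% and 1.62% of the counts of a library. The share was 1.12%, 1.62%, 1.16% and 1.10% in control replicates 1 to 4, and 1.01%, 1.10%, 1.04% and 1.53% in dcKO_Nex-Cre replicates 1 to 4. Wilson 95% binomial intervals of these shares were at most 0.011 percentage points wide and cover counting error only. The values of the groups overlapped, and the highest library of each was the one that stood apart. The mean was 1.25% ± 0.248 (SD, n = 4) in control and 1.17% ± 0.241 in dcKO_Nex-Cre, a difference of -0.084 percentage points that lay within the spread of either group. Without control replicate 2 and dcKO_Nex-Cre replicate 4 the shares were 1.13% ± 0.0263 (SD, n = 3) and 1.05% ± 0.0447, and all 3 mutant libraries lay below all 3 control libraries. The 40S genes alone held 0.63% ± 0.156 in control and 0.58% ± 0.144 in dcKO_Nex-Cre, and the 60S genes 0.62% ± 0.0924 and 0.59% ± 0.0969 (n = 4 in each), which for both subunits is within the spread over 8 libraries. Over the 6 other libraries the 40S share was 0.55% ± 0.00789 (SD, n = 3) and 0.50% ± 0.0259, without overlap, and the 60S share was 0.58% ± 0.0192 and 0.55% ± 0.0189, with overlap.

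**Figure D1:**
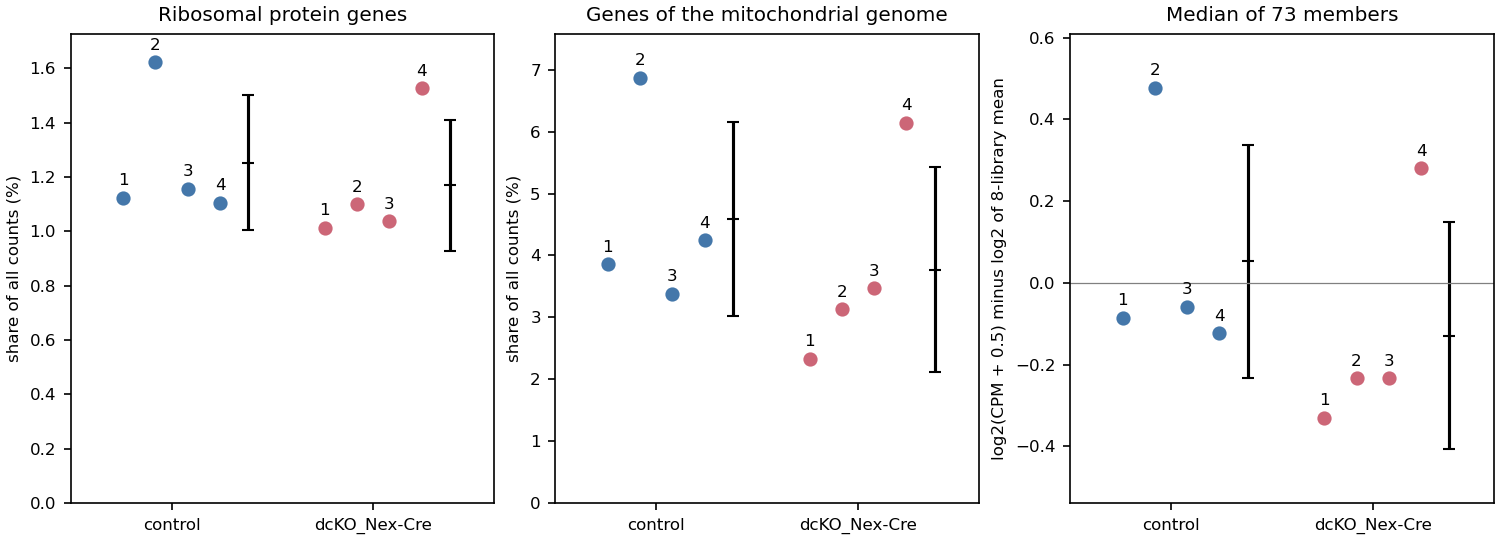
The left and middle panels show the share of all counts (%) on the 73 ribosomal protein genes and on the genes of the mitochondrial genome, and the right panel the median over the 73 genes of log2(CPM + 0.5) minus the log2 of the mean over the 8 libraries. Points are single libraries with their replicate number, and black bars give the mean and SD of 4 libraries. Control replicate 2 and dcKO_Nex-Cre replicate 4 are the highest of their group in all 3 panels, at 1.62% and 1.53% of counts on ribosomal protein genes.

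Single genes followed the same division between libraries. Control replicate 2 exceeded the mean of the other 3 control libraries by a median ratio of 1.48, from 0.798 for *Rpl30* to 2.64 for *Rpl34*, and was above all 3 for 67 of 73 genes. dcKO_Nex-Cre replicate 4 exceeded the mean of the other 3 mutant libraries by a median ratio of 1.5, from 1.08 for *Rpl22* to 2.0 for *Rps18*, and was above all 3 for 70 of 73 genes. Over all genes tested the corresponding median ratios were 1.0 and 0.983, and 36.6% and 36.2% of genes were above all 3. Of the 73 genes, 53 were highest in control replicate 2 and 17 in dcKO_Nex-Cre replicate 4, while 34 were lowest in dcKO_Nex-Cre replicate 1 and 20 in dcKO_Nex-Cre replicate 3. The biological coefficient of variation of the fit, a measure of spread between replicates beyond counting error, had a median of 0.188 for the members, from 0.0904 for *Rpl7l1* to 0.409 for *Rpl34*, and of 0.130 for all genes tested.

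**Figure D2:**
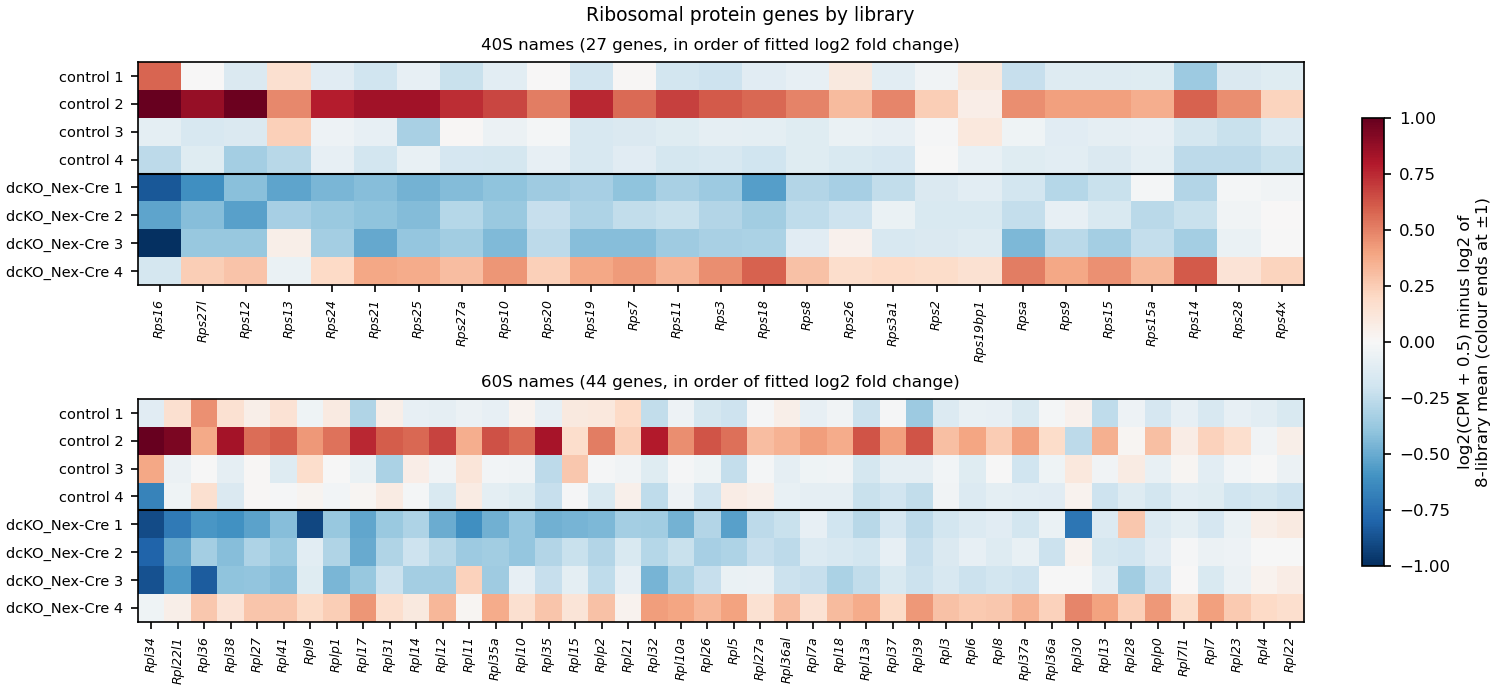
Each column is 1 of 71 ribosomal protein genes and each row a library, with 27 genes of 40S names above and 44 of 60S names below, in order of their fitted log2 fold change. The colour is log2(CPM + 0.5) minus the log2 of the mean over the 8 libraries, cut at 1 on either side. The rows of control replicate 2 and dcKO_Nex-Cre replicate 4 are mostly red and the other 3 rows of dcKO_Nex-Cre mostly blue.

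In the comparison of dcKO_Nex-Cre with control over all 8 libraries, no ribosomal protein gene passed the test. With edgeR's quasi-likelihood test, 0 of 73 had an adjusted p under 0.05, where 0.884% of all genes tested did, and the smallest adjusted p of a member was 0.152 (*Rps16*). DESeq2 and limma-voom also called 0. At an unadjusted p under 0.05 there were 8 members, all lower in the mutant (*Rps16*, *Rpl34*, *Rpl22l1*, *Rpl36*, *Rpl38*, *Rpl14*, *Rpl15* and *Rpl21*), which is 11% of the members beside 7.05% of all genes in that direction, and 0 were higher beside 6.59%. Fitted values were below 0 for 61 members and above 0 for 12, or 16.4% above 0 beside 50.9% of all genes. The median log2 fold change was -0.18 over the members and 0.00 over all genes tested. There were 21 members within 0.1 of 0 and 5 below -0.5. For no member did the 4 mutant libraries lie all above or all below the 4 control libraries, which was the case for 8.0% of all genes tested.

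Without control replicate 2 and dcKO_Nex-Cre replicate 4, the same test called 19 of 73 ribosomal protein genes, all lower in dcKO_Nex-Cre. In the same fit 5.5% of all genes were called lower and 11% in either direction. These 2 libraries were set aside after the data were seen, and the member share was among the measures in which they stood apart, so that leaving them out narrows the spread that the test uses. The called genes were *Rpl22l1*, *Rpl36*, *Rpl38*, *Rps27l*, *Rpl27*, *Rps24*, *Rpl41*, *Rplp1*, *Rps21*, *Rps25*, *Rpl14*, *Rpl35a*, *Rpl15*, *Rplp2*, *Rps10*, *Rps20*, *Rpl10a*, *Rps7* and *Rps18*, 8 of 28 with 40S names and 11 of 45 with 60S names. The median log2 fold change was -0.17, close to that with 8 libraries. All 3 mutant libraries were below all 3 control libraries for 41 members, beside 17.3% of all genes, and above them for 4, beside 16.4%.

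The counts depended on which library was left out. Without dcKO_Nex-Cre replicate 4 alone, 5 members were called, all lower, beside 3.74% of all genes in that direction, and 4 members had a value above 0, beside 50.6%. These 5 were *Rpl15*, *Rpl27*, *Rpl36*, *Rpl41* and *Rplp1*, all among the 19 above. Without control replicate 2 alone, 0 were called, beside 0.527% of all genes, 5 had an unadjusted p under 0.05, beside 12.5%, 36 had a value above 0, beside 54.1%, and the median was -0.01. The file names carry a lane tag, which is 8 for the mutant replicates 3 and 4 and 2 for the other 6 libraries. Within lane tag 2, 0 members were called, beside 1.48% of all genes, 23 had an unadjusted p under 0.05, all lower, beside 11.8% of all genes, and the median was -0.37. Lane tag 8 holds no control library and gives no value. With the mitochondrial share of each library as a covariate, *Rpl22l1* alone was called, and lower, beside 2.08% of all genes in that direction, 31 members were above 0, beside 51.1%, and the median was -0.04.

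**Figure D3:**
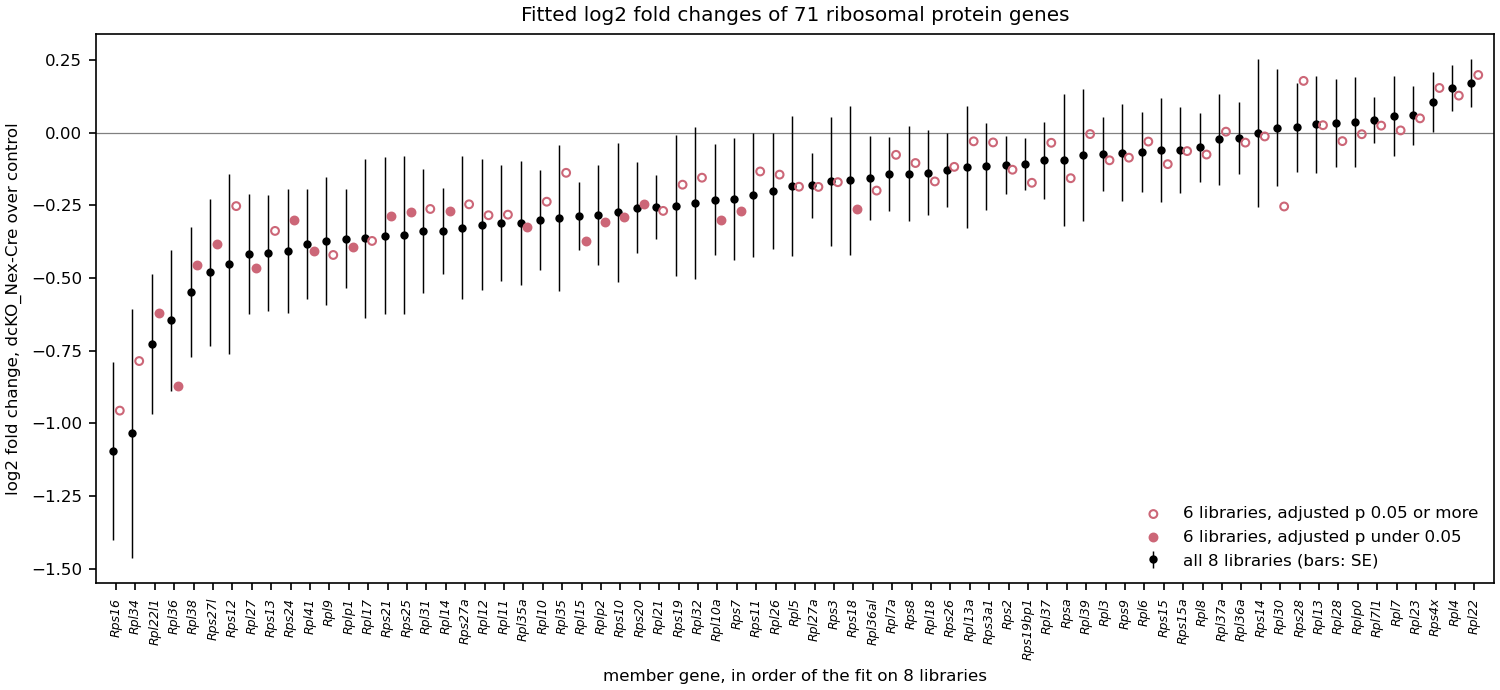
Each position on the horizontal axis is 1 of 71 ribosomal protein genes, in order of the log2 fold change (vertical axis) of dcKO_Nex-Cre over control in the fit on 8 libraries. Black points with SE bars give that fit, and red circles the fit without control replicate 2 and dcKO_Nex-Cre replicate 4, filled for the 19 genes with an adjusted p under 0.05. Values run from -1.09 for *Rps16* to 0.17 for *Rpl22*, and the filled circles are all below 0.

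Sequence shared with other genes is common among the members and is shown first. For the 3 members with the lowest fitted values, the first 60 coding bases of the main transcript are printed because each is identical, in 60 of 60 bases, to an annotated pseudogene on another chromosome (GENCODE M21 on GRCm38). The start codon is in the first 3 positions, and no base differs that could be set in capitals. A read that lies within such a stretch fits both places, and how such reads were counted is not given in the sources used here.
Rps16 (chr7:28350652-28353155, plus strand) and Rps16-ps2 (chr5:129128077-129128517): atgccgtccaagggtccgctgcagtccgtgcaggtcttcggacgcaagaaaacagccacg
Rpl34 (chr3:130726831-130730398, minus strand) and Rpl34-ps1 (chr6:71124610-71124963): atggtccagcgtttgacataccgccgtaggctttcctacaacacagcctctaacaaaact
Rpl22l1 (chr3:28805436-28807424, plus strand) and Gm15421 (chr5:22528321-22529244): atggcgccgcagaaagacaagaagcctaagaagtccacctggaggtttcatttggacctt

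The copies themselves held few counts, with a mean over libraries of 40.8 for *Rps16-ps2*, 0.25 for *Rpl34-ps1* and 3.5 for *Gm15421*, against 437, 2380 and 903 for the genes. Across the annotation, 265 pseudogenes carried a symbol of the same form, 211 of them with at least 1 count, and together they held between 0.00941% and 0.0165% of the counts of a library. Their share was highest in control replicate 2 and in dcKO_Nex-Cre replicate 4, the same libraries in which the members were highest.

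*Rps16*, a 40S protein whose tail reaches toward the decoding site, had the lowest fitted value. It was at 29.8, 43.0, 18.4 and 16.4 CPM in control replicates 1 to 4 and at 10.8, 13.5, 8.79 and 17.4 CPM in dcKO_Nex-Cre replicates 1 to 4. Only dcKO_Nex-Cre replicate 4 reached into the control range, above control replicate 4. The log2 fold change was -1.09 ± 0.305 (SE), with an adjusted p of 0.152 by edgeR and p = 0.057 by exact permutation of the 8 libraries (two-sided, 70 regroupings), where the smallest possible p is 0.029. Without the 2 libraries that stood apart it was -0.96 (adjusted p = 0.079).

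*Rpl34*, a 60S protein, varied more between replicates than any other member. Control replicates 1 to 4 were at 99.97, 273, 142 and 68.0 CPM and dcKO_Nex-Cre replicates 1 to 4 at 58.2, 62.1, 59.1 and 105 CPM. The mutant libraries were close together apart from replicate 4, which lay above 2 of the control libraries, and the log2 fold change was -1.03 ± 0.429 (adjusted p = 0.346).

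*Rpl22l1* encodes a paralog of *Rpl22* that can take its place in the ribosome. It was at 45.1, 78.3, 38.8 and 39.2 CPM in control and at 24.5, 28.2, 27.1 and 42.2 CPM in dcKO_Nex-Cre. Mutant replicates 1 to 3 lay below every control library and replicate 4 above 2 of them. The log2 fold change was -0.73 ± 0.241 (adjusted p = 0.223) over 8 libraries and -0.62 ± 0.0835 (adjusted p = 0.00156) over 6. *Rpl22* itself, which binds RNA as well as the ribosome, had the highest fitted value of the members. It was at 373, 432, 397 and 359 CPM in control and at 441, 413, 437 and 465 CPM in dcKO_Nex-Cre, where only replicate 2 fell below the highest control library. Its log2 fold change was 0.17 ± 0.0823 (adjusted p = 0.389) over 8 libraries and 0.20 ± 0.0678 (adjusted p = 0.079) over 6.

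*Rpl38*, known for its part in the translation of Hox mRNAs, stood at 49.7, 80.0, 42.1 and 40.5 CPM in control and at 29.2, 33.2, 33.8 and 49.3 CPM in dcKO_Nex-Cre. Again mutant replicate 4 alone lay within the control range, and the log2 fold change went from -0.55 ± 0.224 (adjusted p = 0.319) to -0.46 ± 0.0909 (adjusted p = 0.011) without the 2 libraries. *Rpl36*, a 60S protein with the fewest counts of any member (mean 112 per library), was at 6.96, 6.57, 4.92 and 5.59 CPM in control and at 3.13, 3.79, 2.56 and 6.06 CPM in dcKO_Nex-Cre. Its log2 fold change was -0.65 ± 0.244 (adjusted p = 0.280) over 8 libraries and -0.87 ± 0.192 (adjusted p = 0.016) over 6. *Rpl15*, a 60S protein and a Diamond-Blackfan anaemia gene, was at 214, 227, 242 and 199 CPM in control and at 145, 172, 188 and 219 CPM in dcKO_Nex-Cre, with a log2 fold change of -0.29 ± 0.119 (adjusted p = 0.321). *Rpl15* was unlike most members in that control replicate 2 was not the highest library.

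Of 4 genes of the acidic stalk of the large subunit, which recruits the elongation factors, 3 were below 0 over 8 libraries, beside 61 of 73 members. Over 6 libraries all 4 were below 0. *Rpl12*, the fourth gene of the list, had a log2 fold change of -0.32 ± 0.226 (adjusted p = 0.549) over 8 libraries. *Rplp1* and *Rplp2*, the arms, had log2 fold changes of -0.36 ± 0.170 and -0.28 ± 0.172 (adjusted p = 0.379 and 0.485), and *Rplp0*, which anchors them, had 0.04 ± 0.155 (adjusted p = 0.935). *Rplp1* was at 333, 456, 311 and 307 CPM in control and at 240, 254, 228 and 371 CPM in dcKO_Nex-Cre, and mutant replicates 1 to 3 lay below every control library. *Rplp0* was at 679, 939, 725 and 674 CPM in control and at 694, 707, 662 and 1034 CPM in dcKO_Nex-Cre, with the groups interleaved. Over 6 libraries *Rplp1* and *Rplp2* passed the test (-0.39 and -0.31, adjusted p = 0.0062 and 0.029) and *Rplp0* did not (-0.01, adjusted p = 0.967). The difference between these genes was not tested.

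At the exit tunnel, *Rpl4*, which lines its narrow part, and *Rpl39*, a very small protein at its wall, lay on either side of 0. *Rpl4* was at 930, 974, 999 and 885 CPM in control and at 1042, 995, 1027 and 1148 CPM in dcKO_Nex-Cre, where only replicate 2 fell below the highest control library. Its log2 fold change was 0.15 ± 0.0802 (adjusted p = 0.420), and that of *Rpl39* was -0.08 ± 0.226 (adjusted p = 0.903). Of the 10 tunnel exit genes tested, 3 were above 0 and 7 below.

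*Rpl5* and *Rpl11*, which carry the 5S rRNA and bind Mdm2 when assembly of the ribosome fails, had log2 fold changes of -0.19 ± 0.241 and -0.31 ± 0.200 (adjusted p = 0.755 and 0.510). Both were among the members of lowest level, at 7.94 ± 2.30 and 6.93 ± 0.929 CPM (SD, n = 4) in control and 7.03 ± 2.20 and 5.61 ± 1.58 CPM in dcKO_Nex-Cre. *Rpl10*, which joins the large subunit last, was at 25 ± 6.05 CPM in control and 20.3 ± 3.87 CPM in dcKO_Nex-Cre (-0.30 ± 0.172, adjusted p = 0.460). *Rpl41*, which encodes the shortest ribosomal protein, was at 320 ± 75.5 and 246 ± 65.2 CPM (-0.38 ± 0.189, adjusted p = 0.398), and passed the test over 6 libraries at -0.41 (adjusted p = 0.0074).

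Among small subunit proteins, *Rps19*, the gene most often mutated in Diamond-Blackfan anaemia, was at 149, 287, 152 and 152 CPM in control and at 135, 137, 127 and 223 CPM in dcKO_Nex-Cre. Within each group 3 libraries were close together and the fourth far above, and the log2 fold change was -0.25 ± 0.243 (adjusted p = 0.666). Of 18 genes of that anaemia tested, 17 were below 0, 0 were called over 8 libraries and 6 were called lower over 6 libraries, beside 61 of 73 members below 0 and 19 of 73 called lower. *Rps4x*, an X-linked member, was at 111 ± 16.0 CPM in control and 120 ± 10.2 CPM in dcKO_Nex-Cre (0.11 ± 0.103, adjusted p = 0.669). *Rps27a*, which is made as a fusion with ubiquitin, *Rpsa*, also known as the laminin receptor precursor, and *Rps13* were at 8.65 ± 3.14, 9.08 ± 2.21 and 6.08 ± 1.36 CPM in control and at 6.92 ± 1.91, 8.54 ± 2.86 and 4.57 ± 0.911 CPM in dcKO_Nex-Cre, with adjusted p of 0.570, 0.880 and 0.389.

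By their symbols the members include a pair of genes whose products are not parts of the mature ribosome. These are *Rps19bp1*, whose product binds Rps19, at -0.11 ± 0.0897, and *Rpl7l1*, a factor of large subunit assembly, at 0.04 ± 0.0791 (adjusted p = 0.610 and 0.833). Of the paralogs, *Rps27l*, a target of p53, was at 30.2, 55.6, 27.0 and 27.6 CPM in control and 19.6, 22.3, 23.1 and 35.9 CPM in dcKO_Nex-Cre. Mutant replicates 1 to 3 lay below every control library, and the log2 fold change was -0.48 ± 0.254 (adjusted p = 0.425) over 8 libraries and -0.38 ± 0.0869 (adjusted p = 0.018) over 6. *Rpl36al* was at -0.16 ± 0.145 (adjusted p = 0.645). With all 5 paralog and look-alike symbols left out, the remaining 68 members had a median of -0.18. Of the ribosomal proteins that the symbol rule does not reach, *Fau*, which carries Rps30, was at -0.50 ± 0.216 (adjusted p = 0.338), and the 40S scaffold *Rack1* was at -0.02 ± 0.161 (adjusted p = 0.970).

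Levels per length differed widely among the members. Per kilobase of annotated exon, the highest mean levels included those of *Rps15* (670 CPM per kilobase), *Rplp1* (626) and *Rpl4* (498), and the lowest those of *Rpl5* (1.91), *Rps13* (1.98), *Rpl11* (2.32) and *Rpsa* (2.78), a range of 351-fold. The 8 members with the most counts, *Rps3* first among them, held 51.2% of all member counts.

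The count minimum left out core proteins of the ribosome as well. Just inside the minimum was *Rpl36* with a mean of 112 counts and just outside *Rps23* with 90.4. The 19 genes under it included 9 that encode core proteins of the ribosome, among them *Rpl29* (20.9 counts), *Rpl23a* (24.9), *Rpl24* (40.8) and *Rps6* (32.2), the substrate of S6 kinase. The other 10 were copies and paralogs such as *Rpl3l*, *Rpl10l*, *Rpl39l* and *Rps27rt*, each with a mean under 10 counts. *Rps6* was at 1.58 ± 0.198 CPM in control and 1.23 ± 0.245 CPM in dcKO_Nex-Cre (-0.38 ± 0.212, adjusted p = 0.450). *Rpl24* was at 2.16 ± 0.304 CPM in control and 1.37 ± 0.185 CPM in dcKO_Nex-Cre (-0.65 ± 0.193, adjusted p = 0.171). Alone among these 9 core genes, *Rpl24* had all 4 mutant libraries below all 4 control libraries. Groups did not overlap, in either direction, for 8.0% of all genes tested, and *Rpl24* held only 27 to 53 counts per library.

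Levels were read beside the sequence that each gene has to itself. For the main transcript of a gene, the share of 50-base windows found in no other annotated gene had a median of 55.3% over the 73 members and of 19.3% over the 9 core genes under the minimum. Of the members, 71 shared at least 1 such window with another gene. *Rps3*, *Rpl22* and *Rpl8* had 97.0%, 94.8% and 93.5% of windows to themselves, whereas *Rpl5* had 6.16%, *Rps6* 15.4% and *Rpl23a* 14.3%. Across the members, the level per kilobase of main transcript went with the unique share with Spearman's rho of 0.40 for windows of 50 bases and 0.57 for windows of 100 bases (n = 73 genes, which share libraries and are not independent). Members were chosen by level, so neither these values nor the medians on either side of the minimum are free of that choice. Over the 91 genes of the symbol rule with a count, on both sides of the minimum, rho was 0.37 and 0.47. The median level per kilobase was 103 CPM in the 40 members with at least 50% unique windows and 47.0 CPM in the other 33. There were exceptions, as *Rpsa* was low with 68.9% of its 100-base windows unique. The log2 fold changes had medians of -0.15 and -0.23 in these groups of 40 and 33.

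**Figure D4:**
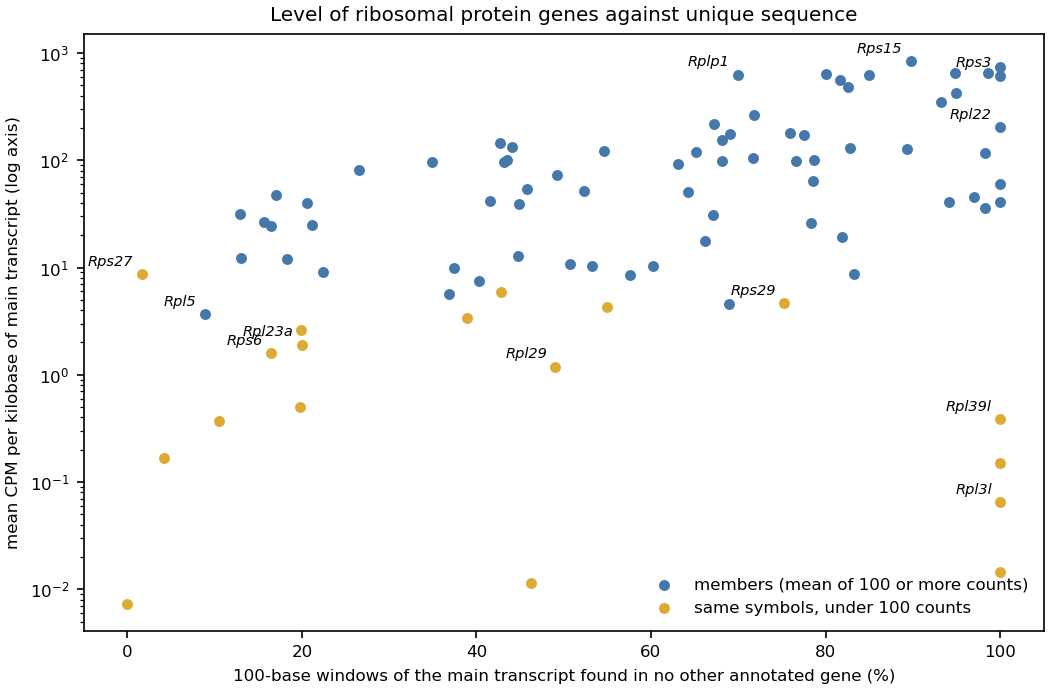
The horizontal axis is the share (%) of 100-base windows of a gene's main transcript found in no other annotated gene, and the vertical axis the mean CPM per kilobase of main transcript on a log axis. Blue points are 71 of the members and yellow points genes of the same symbols under 100 counts. *Rpl5* lies low on the left and *Rps3* high on the right at 100%, while paralogs of little expression such as *Rpl3l* lie low on the right.

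The start sites of a few members show how the TOP motif varies. Windows of 30 bases, 15 before and 15 from the RefSeq transcription start (GRCm38.p6), are printed 5′ to 3′ on the strand of the gene for 5 members called lower over 6 libraries and for the 2 with the highest fitted values. The 5 were picked by hand from the 19 called, and whether such a start goes with the fold change was not tested. Capitals mark the unbroken run of C and T that begins at the annotated start with a C. Windows were found for 57 of 73 members.
Rpl22l1 (chr3:28805493-28805522, plus strand): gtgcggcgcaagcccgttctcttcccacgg
Rpl38 (chr11:114668565-114668594, plus strand): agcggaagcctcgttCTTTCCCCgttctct
Rplp2 (chr7:141447636-141447665, plus strand): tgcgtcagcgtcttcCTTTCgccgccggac
Rpl15 (chr14:18270972-18271001, minus strand): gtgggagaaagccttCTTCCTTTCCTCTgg
Rps10 (chr17:27635230-27635259, minus strand): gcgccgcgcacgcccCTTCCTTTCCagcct
Rpl22 (chr4:152325711-152325740, plus strand, 1 of 2 annotated windows): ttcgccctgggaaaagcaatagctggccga
Rpl4 (chr9:64173372-64173401, plus strand): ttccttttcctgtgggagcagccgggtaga

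*Rpl15* had the longest run of these at 13 bases, *Rps10* had 10, *Rpl38* 8 and *Rplp2* 5, and the windows of *Rpl22l1*, *Rpl22* and *Rpl4* had none at the annotated position. A start with C and at least 4 pyrimidines after it was present in 11 of 57 members (19.3%) and in 3.01% of 27025 genes with a window. In windows from 250 bases before to 50 after the start, CTTTCC on the strand of the gene was found in 23 of 57 members (40.4%) beside 16.0% of genes, and CCGGAAG, searched on both strands, in 23 (40.4%) beside 9.93%. TATAAA on the strand of the gene was found in 6 (10.5%) beside 9.77%, and AAGATGG in 4 (7.02%) beside 4.17%. These are matches of letters and not binding sites, and annotated starts can lie some bases from the start in use.

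Other lists of protein synthesis had medians nearer to 0 over 8 libraries. The 16 elongation factors and other TOP mRNAs tested had a median log2 fold change of -0.06 with 5 above 0, the 52 ribosome biogenesis genes 0.00 with 27 above 0, and the 17 genes of RNA polymerase I and rDNA transcription 0.01 with 10 above 0. None of these 3 lists had a gene called over 8 libraries, and 2, 4 and 2 of their genes had an unadjusted p under 0.05, all above 0. Without control replicate 2 and dcKO_Nex-Cre replicate 4 this changed: 5 of the 52 biogenesis genes were called, all lower, beside 5.5% of all genes called lower, with a list median of -0.04. The TOP list had 2 called higher and 1 lower and the polymerase I list 1 each way, beside 11% of all genes called in either direction. Of 20 genes of mTORC1 and translational control, 14 were above 0 and *Ddit4*, an inhibitor of mTORC1, rose from 75 ± 8.05 to 106 ± 5.41 CPM (SD, n = 4; log2 fold change 0.50, adjusted p = 0.028), a call lost in 5 of 8 fits without 1 library. Of 10 genes of the p53 response, 8 were above 0 and 0 called, with 2 at an unadjusted p under 0.05. Over all genes tested in the fit on 8 libraries, 50.9% were above 0 and 0.884% were called. Without control replicate 2 and dcKO_Nex-Cre replicate 4, the mTORC1 list had 5 called higher and 1 lower. The p53 list then had 2 called higher and 0 lower, beside 11% of all genes called in either direction.

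Nuclear genes for the mitochondrion had fitted values mostly below 0, as the members did. The 77 mitochondrial ribosomal protein genes tested had a median of -0.15 with 63 below 0, and the 79 nuclear genes of the respiratory chain -0.21 with 70 below 0, in both cases with 0 called over 8 libraries and with 4 and 10 lower at an unadjusted p under 0.05, beside 7.05% of all genes. Over 6 libraries 27 and 36 were called, all lower, beside 5.5% of all genes. In control replicate 2 the median over each list lay above the 8-library mean, by 0.48 for the cytosolic ribosomal proteins, 0.23 for the mitochondrial ones and 0.33 for the respiratory chain on the log2 scale, and in dcKO_Nex-Cre replicate 4 by 0.28, 0.17 and 0.20. The list of elongation factors and other TOP mRNAs stood at 0.16 in both libraries, and the ribosome biogenesis list at -0.05 and 0.11.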

How the data were processed

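Whole cortex of postnatal day 1 was profiled by RNA-seq with the Illumina TruSeq RNA v2 kit, which does not mark strand. The 8 files deposited hold, for each sample, whole-number counts by Ensembl gene, without normalization and against genome build mm10 per the labels. The aligner, the counting program, its annotation and its treatment of reads that map to several places are not given in the sources used here. Of 48709 genes, 48349 were matched to GENCODE M21 (GRCm38) for symbols, biotypes, lengths and transcripts.

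Counts were filtered with filterByExpr, scaled by TMM and tested with edgeR 4.0.16 (R 4.3.3; quasi-likelihood F test, robust, two-sided, Benjamini-Hochberg adjustment over all 16287 genes tested, threshold 0.05). CPM use the TMM library sizes. Single genes were also tested by exact permutation. DESeq2 1.42.0, limma-voom (limma 3.58.1), other filters and scalings, a replicate block, lane tag 2 alone and each library left out in turn were alternatives. On simulated counts for this comparison with 200 changed genes of 16114, edgeR called 129 of these and 14 unchanged genes.

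The members and gene lists were chosen with earlier results of these data known. Genes named were the members with an adjusted p under 0.05, the 5 highest and 5 lowest fold changes, the 5 smallest p, the 4 highest and 4 lowest levels per kilobase, members fixed by role, paralogs, the genes nearest the count minimum and called genes of the other lists. Any other gene is named because it belongs to a printed count or a printed range, after its values were seen. Libraries of a group differed by more than counting noise (chi-square per degree of freedom at least 3.77), so that each was counted as 1 sample. A few genes that enter the counts, medians and sums are not reported here by name and are not plotted.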

Additional observations from a re-analysis of the deposited data

Results flagged for a closer look

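In 16 of 58 groups of 4 values examined, 1 library lay far from the other 3 by Dixon's criterion, which chance does in about 1 of 20 groups. The values are not independent, since they share libraries. All 16 were high values, 5 in control replicate 2 and 11 in dcKO_Nex-Cre replicate 4. The summed share of counts was 1.62% in control replicate 2, where the other control libraries lay between 1.10% and 1.16%, and 1.53% in dcKO_Nex-Cre replicate 4, where the others lay between 1.01% and 1.10%. *Rps19* was at 287 CPM in control replicate 2 and 223 CPM in dcKO_Nex-Cre replicate 4. In control replicate 2, *Rps15* was at 560 CPM, *Rpl22l1* at 78.3 CPM and *Rps27l* at 55.6 CPM. In dcKO_Nex-Cre replicate 4, *Rplp0* was at 1034 CPM, *Rpl41* at 343 CPM, *Rps4x* at 135 CPM, *Rpl23* at 124 CPM, *Rpl34* at 105 CPM, *Rpl39* at 97.3 CPM, *Rpl36al* at 41.4 CPM, *Rps19bp1* at 38.2 CPM and *Rps27a* at 9.77 CPM.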

How the results depend on the processing

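Over 8 libraries, 0 members were called under either other test, either other scaling, both other filters and the replicate block. The median stayed between -0.19 and -0.14 under these and with members of 1000 or more counts, which held 4 genes at an unadjusted p under 0.05. Replicate numbers did not pair the libraries (correlations of deviations 0.13, 0.018, 0.13 and -0.14), and with the number as a block 0 members were called, 7 had an unadjusted p under 0.05 and the median was -0.18. The block moved *Smarcc1* to an adjusted p of 0.058. Within lane tag 2, 23 members had an unadjusted p under 0.05, 5 were higher, the groups did not overlap for 47, and *Rpl23*, *Rpl7l1* and *Rplp0* were at -0.026, -0.029 and -0.10. With fewer mutant libraries in that setting, groups separate more easily by chance. The share of all genes without overlap is not given there, so no conclusion is drawn from the 47. Both alternatives that follow were chosen after seeing the data. Without control replicate 2 and dcKO_Nex-Cre replicate 4, 19 members were called and 34 had an unadjusted p under 0.05. Groups did not overlap for 45, of which 41 were lower, beside 17.3% of all genes, and 4 higher, beside 16.4%. With the mitochondrial share as a covariate the counts were 1 called, 18 at an unadjusted p under 0.05 and 31 higher.

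With each library left out in turn, 0 to 5 members were called, 2 to 30 had an unadjusted p under 0.05, 4 to 36 were higher, groups did not overlap for 0 to 40, the median ran from -0.37 to -0.01 and the difference in share from -0.20 to 0.040 percentage points. The extremes came without dcKO_Nex-Cre replicate 4 or control replicate 2, except the lowest unadjusted count (without dcKO_Nex-Cre replicate 1). The lowest count of called members was also reached without control replicate 1. Among single genes the log2 fold change changed sign for *Rack1* (-0.18 to 0.13), *Rpl23* (-0.024 to 0.14), *Rpl39* (-0.27 to 0.20), *Rpl5* (-0.39 to 0.032), *Rpl7l1* (-0.0091 to 0.085), *Rplp0* (-0.13 to 0.17), *Rps15* (-0.26 to 0.10), *Rps19* (-0.47 to 0.050) and *Rpsa* (-0.34 to 0.092). Of 608 values recomputed for 38 genes, 548 kept direction and side of the threshold, 19 changed sign, 4 gained a call and 37 lost one. All 37 were of *Smarcc1*, *Neurod6*, *Cspg4*, *C1qb* and *Ddit4*, each of which lost calls when single libraries were left out. The alternatives chosen after seeing the data, in which further members gained a call, are not among the 608. The count of groups that do not overlap was not recomputed where the CPM are the same (both other tests, the block and the covariate). Where single libraries were left out, that count also has no share of all genes beside it. Depth limits members near 100 counts, such as *Rpl36*.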
